A study of Mus musculus with 9 samples.

Results

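The genes described here are 46 mouse genes that interferons induce, measured in lung tissue by poly(A) RNA sequencing. They were taken from the deposited gene table by symbol, and all 46 were found among its 55359 genes. Transcript levels are given in FPKM, the counted fragments scaled by the length of the gene's exons and the library's total, which allows levels of different genes to be set side by side. A gene was tested where its FPKM reached 1 in 3 or more libraries, which held for 15459 genes and for 45 of the 46 members. Oasl1 reached that level in only 2 libraries, both of Silica + ATL-III, and was not tested.

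Male mice of the C57BL/6J strain, aged 6 to 8 weeks, were compared in 3 groups of 20 mice, and lungs were taken on day 28 after a single instillation into the trachea. Control mice were instilled with saline. Silica mice were instilled with 5 mg of silica, the crystalline dust that causes silicosis. Silica + ATL-III mice had the same silica and in addition atractylenolide III (ATL-III), a plant sesquiterpene lactone, injected into the abdominal cavity at 30 mg/kg per day. There are 3 libraries per group. No group had ATL-III without silica, so every effect of ATL-III described here is one on top of silica. The labels do not say whether each library came from a separate mouse, so the p-values measure the spread between these 3 libraries per group, which may be partly technical.

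Interferons are secreted proteins that cells release on sensing foreign nucleic acid. Type I interferons (the alpha and beta forms) and type III (lambda) interferons activate, through their receptors, a complex that includes Stat2 and Irf9 and binds the interferon-stimulated response element (ISRE) in the promoters of antiviral genes. Interferon gamma, made mainly by T and NK cells, acts through gamma-activated sites (GAS) in promoters and induces, among others, GTPases that act against intracellular pathogens. In the lung these programs are best known from respiratory virus infection, and macrophages, epithelium and incoming leukocytes all take part in them.

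The binding motif is written into many of these genes. RefSeq promoter sequences (GRCm38.p6) were found for 35 of the 46 members, and Usp18, Dhx58, Zbp1, Oas2, Mx1, Mx2, Iigp1, Gbp4, Ifi27, Rtp4 and Parp14 had none in the table used. The ISRE core GAAANNGAAA was looked for on both strands in the 250 bases before each start. It was found in 17 of 42 member promoters (40.5%), against 978 of all 32851 promoters (2.98%). The GAS core TTCNNNGAA was found in 10 of the 42 (23.8%), against 7.02% of all promoters. The motifs have the letters GAA in common, so 1 stretch can hold parts of both. A match is a stretch of letters and not a shown binding site. The first 5 windows below belong to members that were called in at least 1 comparison and hold an ISRE core, and the window of Ifit1 was added after its values were seen, because it was among the members that stood out most in a single library. Each is printed 5′ to 3′ on the strand of its gene, with the ISRE cores of either strand in capitals, merged where they overlap.

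Ifitm2 (chr7:140955978-140956027, minus strand): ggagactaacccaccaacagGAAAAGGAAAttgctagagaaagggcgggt
Trim30a (chr7:104465200-104465249, minus strand): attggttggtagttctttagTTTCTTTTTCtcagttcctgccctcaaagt
Oas1a (chr5:120907526-120907575, minus strand): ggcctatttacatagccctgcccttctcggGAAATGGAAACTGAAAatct
Oas3 (chr5:120777705-120777754, minus strand): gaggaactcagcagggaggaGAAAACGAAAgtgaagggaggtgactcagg
Isg15 (chr4:156200855-156200904, minus strand): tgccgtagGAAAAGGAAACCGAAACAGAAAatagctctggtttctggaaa
Ifit1 (chr19:34640784-34640833, plus strand): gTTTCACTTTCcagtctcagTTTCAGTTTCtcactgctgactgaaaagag

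The nearest edge of the core lay 37 bases before the start in Ifitm2, 27 in Trim30a, 66 in Oas3 and 5 in Oas1a. Isg15 holds 3 overlapping cores, and Ifit1 holds 2 separate ones. Ifitm1, Ifitm3, Ifitm6, Oasl2, Irf7 and Ifi44, which also appear in the results below, had no ISRE core in these 250 bases, and Ifitm6 had a GAS core.

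The libraries held 16047175 to 17792481 counts each. The tissue label was checked against lung markers, and the surfactant gene Sftpc (19802 to 30186 FPKM) and the club cell gene Scgb1a1 (34593 to 94851 FPKM) were abundant in all 9 libraries. The clearest difference in cell markers between the groups was in neutrophil genes. Summed over 11 neutrophil markers, Control libraries held 584, 3878 and 556 FPKM, Silica libraries 1933, 4506 and 732, and Silica + ATL-III libraries 30049, 29828 and 45302. The second Control and second Silica library thus stood above their group mates, and every Silica + ATL-III library stood above all others. In whole tissue, more cells of a type and more RNA per cell cannot be told apart. Classical monocyte markers were also higher in Silica + ATL-III than in Silica (5 of 5 called), and B cell markers were lower (6 of 6 called).

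A pair of patterns runs through the members, and the heat map of all 46 genes shows both. Ifitm1, Ifitm2, Ifitm3 and Ifitm6, Oas2, Oas3, Oasl2 and Trim30a were higher in all 3 Silica + ATL-III libraries than in any Silica library. Many of the classical antiviral genes, such as Mx1, Ifi44, Ifit1, Irf7 and Isg15, were instead high in library Silica + ATL-III 1 and mostly at or below the Silica level in the other 2 libraries of that group. In Silica + ATL-III against Silica, the quasi-likelihood test of edgeR, with p-values adjusted by Benjamini and Hochberg's method (a gene is called at an adjusted p under 0.05), called 8 of 45 members higher, where 11.2% of all tested genes were called higher, and 1 lower (Gbp4), where 10.0% were. In Silica + ATL-III against Control it called 12 higher, against 9.14% of all genes, and 1 lower, against 6.71%. Silica against Control gave 2 higher (Ifitm1 and Oas1a), below the 9.11% of all genes, and 0 lower, where 7.81% of all genes were. The median log2 fold change of the 45 members was 0.31, 0.42 and 0.15 in these comparisons, while that of all tested genes was -0.00, -0.01 and -0.01. Each pair of these comparisons shares 1 group of libraries, so they are not independent of each other. Without the filter on low values, the counts were 18 higher and 2 lower (6.71% and 6.23% of all genes), 25 and 1 (6.02% and 4.37%), and 10 and 1 (6.28% and 5.06%). The genes that fit added were, against Silica, Dhx58, Ifi44, Ifit1, Irf7, Mx1, Mx2, Oasl1, Rtp4, Xaf1 and Zbp1 as higher and Iigp1 as lower. Against Control it added Bst2, Dhx58, Ifi44, Ifit1, Ifit3, Igtp, Irf7, Isg20, Mx1, Mx2, Oasl1, Rsad2 and Usp18 as higher. In Silica against Control it added Bst2, Ifit1, Ifitm6, Iigp1, Isg15, Oas3, Rsad2 and Zbp1 as higher and Gbp4 as lower. All of these but Oasl1 had passed the filter. Standard errors were smaller in the unfiltered fit, against Silica 0.16 for Irf7 and 0.17 for Ifi44, where the filtered fit gave 0.50 and 0.60. Ifi44, Ifit1 and Mx1 were called higher there although Silica + ATL-III 2 and 3 lay below every Silica library. Below, a gene is said to be called or not called by the edgeR fit of all 9 libraries with the filter, unless another fit or a left-out library is named. Fits without Silica + ATL-III 1 keep 2 libraries of that group. That library was singled out because many members were highest in it, and leaving it out lowers the fold changes of those genes. The p-values of such fits do not allow for this choice.

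**Figure D1:**
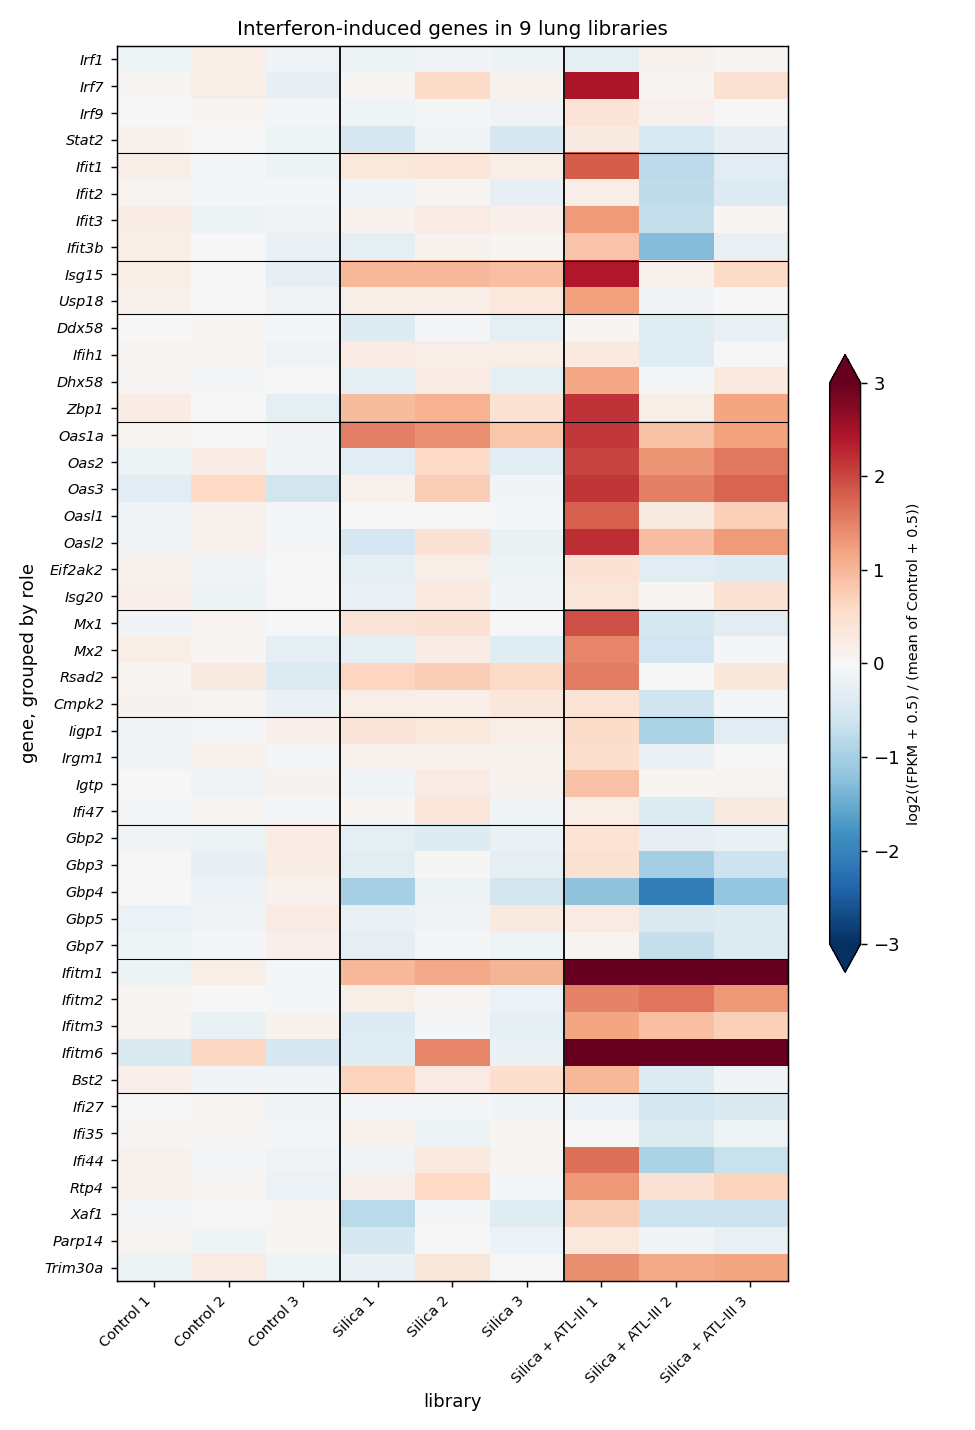
Level of each of the 46 members in each of the 9 libraries, as the log2 ratio of FPKM + 0.5 to the mean of the Control libraries + 0.5 (red higher, blue lower, colours capped at 3). Genes are grouped by role. Ifitm1 and Ifitm6 are deep red in all 3 Silica + ATL-III libraries, while Irf7, Ifit1, Isg15, Mx1 and Ifi44 are red mainly in Silica + ATL-III 1.

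The interferon-induced transmembrane (IFITM) proteins sit in the plasma and endosomal membranes and block the fusion of enveloped viruses. The 4 genes measured here lie on chromosome 7. Their genes were the most abundant members: Ifitm3, Ifitm2 and Ifitm1 ranked 1, 2 and 3 by mean FPKM in Control, and Ifitm1 ranked 1 in both other groups. Ifitm1 was at 94.9, 118 and 102 FPKM in the Control libraries, 212, 230 and 214 in the Silica libraries, and 1081, 836.5 and 1589 in the Silica + ATL-III libraries. It stepped up from group to group with no overlap between any of them, and it was the only member called in all 3 comparisons. By edgeR its log2 fold change was 1.16 ± 0.20 (SE, adjusted p = 0.00441) in Silica against Control and 2.44 ± 0.21 (adjusted p = 6.32e-05) in Silica + ATL-III against Silica.

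Ifitm6 moved furthest of all members. It was at 4.10, 9.09 and 3.96 FPKM in Control, 4.32, 16.7 and 4.91 in Silica, and 334, 328 and 286 in Silica + ATL-III. The group means were 5.72 ± 2.92, 8.64 ± 6.98 and 316 ± 25.9 FPKM (SD, n = 3 libraries each), and its rank among the members went from 32 in Control to 4 in Silica + ATL-III. The second Control and second Silica libraries were the highest of their groups, and neither came near a Silica + ATL-III library. The log2 fold change against Silica was 5.23 ± 0.45 (SE, adjusted p = 6.9e-05, edgeR).

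Ifitm2 and Ifitm3 showed the smaller steps of the family. Ifitm2 was at 145, 138 and 137 FPKM in Control, 159, 147 and 125 in Silica, and 394, 429 and 346 in Silica + ATL-III. Ifitm3 was at 207, 170 and 208 FPKM in Control, 150, 188 and 161 in Silica, and 447, 362 and 322 in Silica + ATL-III. For both genes the Control and Silica libraries overlapped and every Silica + ATL-III library lay above them. Against Silica, edgeR gave log2 fold changes of 1.46 ± 0.12 for Ifitm2 (SE, adjusted p = 6.32e-05) and 1.20 ± 0.14 for Ifitm3 (adjusted p = 0.000251). Of the 75-base stretches in Ifitm2 transcripts, 42.0% also occur in other annotated genes (Gm45717, Gm8865 and Gm11951), so its counts may be split with those.

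Bst2 encodes tetherin, which holds budding virus particles at the cell surface, and it did not follow the IFITM genes. It was at 61.6, 53.0 and 52.5 FPKM in Control, 88.5, 66.6 and 79.8 in Silica, and 112, 41.9 and 52.2 in Silica + ATL-III. All Silica libraries lay above all Control libraries, and the Silica + ATL-III libraries lay on both sides of them. No comparison of Bst2 was called by edgeR with the filter (adjusted p = 0.162 for Silica against Control and 0.699 for Silica + ATL-III against Silica), while limma-voom with sample weights called it higher in Silica than in Control. Without Silica + ATL-III 1, which alone was high, edgeR called it higher in Silica than in Control (log2 fold change 0.61, adjusted p = 0.0216) and lower in Silica + ATL-III than in Silica (-0.72, adjusted p = 0.0163).

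The 2′-5′-oligoadenylate synthetases (OAS) sense double-stranded RNA and make the messenger that switches on RNase L, and the OAS-like (OASL) genes are their relatives. Of the 6 tested genes in the role group that also holds the RNA-sensing kinase Eif2ak2 and the exonuclease Isg20, 3 rose in Silica + ATL-III against Silica. Oas2 was at 3.56, 4.75 and 3.76 FPKM in Control, 3.16, 6.29 and 3.13 in Silica, and 17.9, 10.8 and 13.1 in Silica + ATL-III. Its log2 fold change against Silica was 1.76 ± 0.26 (SE, adjusted p = 0.000863, edgeR), with every Silica + ATL-III library above every other. Oas3, the OAS gene for the longest protein of the family, was at 0.26, 0.93 and 0.15 FPKM in Control, 0.54, 1.09 and 0.39 in Silica, and 3.68, 2.18 and 2.69 in Silica + ATL-III. It was the least abundant tested member in Control, and its call against Silica (2.11 ± 0.50, adjusted p = 0.0125, edgeR) was lost without Silica 1 or Silica 3 (adjusted p up to 0.0581). Outside Silica + ATL-III only Silica 2 reached 1 FPKM, so Oas3 was tested only because of the group in which it was high.

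Oasl2 shows both patterns of the data at once. It was at 5.24, 6.22 and 5.35 FPKM in Control, 3.80, 7.74 and 4.84 in Silica, and 27.9, 11.1 and 14.4 in Silica + ATL-III. All 3 Silica + ATL-III libraries were above all others, and Silica + ATL-III 1 was 1.94 times the higher of its group mates. The log2 fold change against Silica was 1.73 ± 0.31 (SE, adjusted p = 0.00288, edgeR) with all libraries and 1.25 ± 0.23 (adjusted p = 0.00532) without Silica + ATL-III 1. The untested Oasl1 was at 0.61 to 0.79 FPKM in the Control and Silica libraries and at 3.58, 0.94 and 1.46 in Silica + ATL-III.

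Oas1a differed from the other OAS genes in that its step came with silica. It was at 2.87, 2.71 and 2.49 FPKM in Control, 8.57, 7.76 and 5.22 in Silica, and 13.5, 5.39 and 6.84 in Silica + ATL-III. All Silica libraries were above all Control libraries, and the Silica and Silica + ATL-III libraries overlapped. The log2 fold change was 1.52 ± 0.32 in Silica against Control (SE, adjusted p = 0.0113, edgeR) and 0.27 ± 0.30 in Silica + ATL-III against Silica (adjusted p = 0.549). Of its 75-base stretches, 47.6% also occur in Oas1g, so reads of those 2 genes may be split. Isg20 (19.0 to 30.4 FPKM over all libraries) and Eif2ak2 (7.59 to 13.7 FPKM) were called in no comparison. DESeq2 called Isg20 higher in Silica + ATL-III than in Control, and edgeR called it higher than in Silica when Silica 2 was left out (adjusted p = 0.0384).

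Trim30a, which encodes a ubiquitin ligase of the TRIM family, followed the IFITM pattern. It was at 15.6, 20.4 and 15.8 FPKM in Control, 15.1, 22.0 and 17.1 in Silica, and 46.0, 38.6 and 40.1 in Silica + ATL-III. The 3 Silica + ATL-III libraries were close to each other and well above the rest, with a log2 fold change against Silica of 1.23 ± 0.14 (SE, adjusted p = 0.000262, edgeR). Rtp4, which encodes an interferon-induced inhibitor of viral replication, was at 11.5, 10.8 and 9.27 FPKM in Control, 11.7, 16.1 and 10.2 in Silica, and 26.7, 14.4 and 17.1 in Silica + ATL-III. It was called against Control (1.00 ± 0.22, adjusted p = 0.00909, edgeR) and not against Silica (0.64 ± 0.22, adjusted p = 0.0563), where Silica 2 lay within the Silica + ATL-III range.

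**Figure D2:**
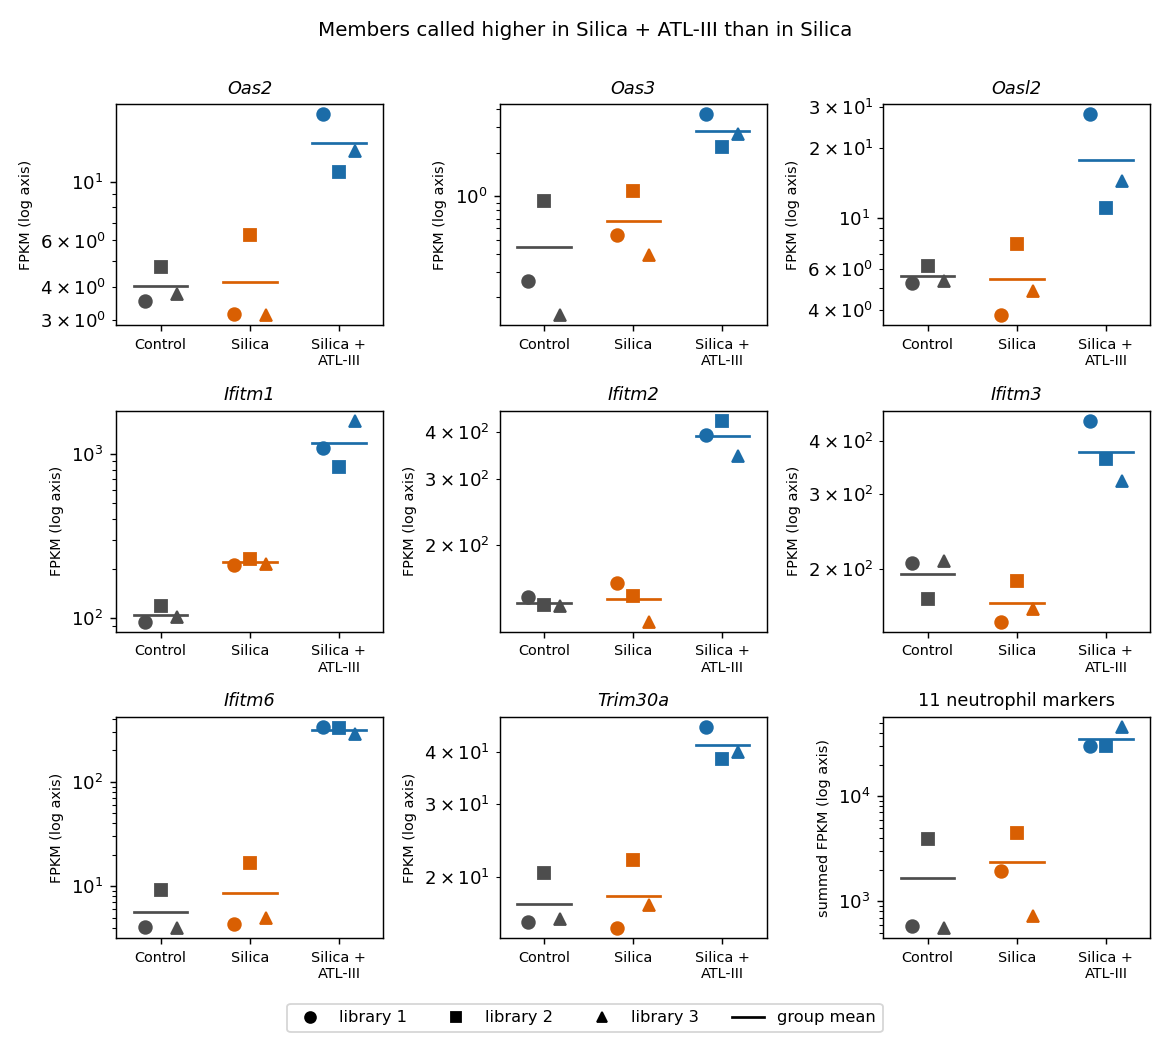
FPKM on log axes of the 8 members called higher in Silica + ATL-III than in Silica, and the summed FPKM of the 11 neutrophil markers, with 1 point per library (shape gives the library number) and a line at each group mean. All Silica + ATL-III points lie above all Silica points in each panel, and the square of library 2 is the highest Control and Silica point in most panels, as in the neutrophil panel.

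Both the 8 risen members and the neutrophil markers were higher in every Silica + ATL-III library than in any Silica library. All 11 neutrophil markers were called higher in Silica + ATL-III than in Silica and than in Control, and 2 of 11 in Silica against Control. Within groups, 6 of the 8 risen members (Ifitm1, Ifitm6, Oas2, Oas3, Oasl2 and Trim30a, 75%) were highest in both Control 2 and Silica 2. Of all 45 tested members 14 (31.1%) were so placed, and of all tested genes 18.1%. Ifitm2 and Ifitm3 were not. Control 2 and Silica 2 had the highest sums of their groups for neutrophil markers. The same held for classical and non-classical monocyte, T and NK cell and B cell markers. Within Silica + ATL-III the neutrophil sum was highest in library 3, as was Ifitm1, while Ifitm3, Ifitm6, Oas2, Oas3, Oasl2 and Trim30a were highest in library 1 and Ifitm2 in library 2. Silica 1 had a higher neutrophil sum than Silica 3. Ifitm1, Ifitm3, Ifitm6, Oasl2 and Trim30a were lower in Silica 1 than in Silica 3, and Ifitm2, Oas2 and Oas3 were higher. With Control 2 and Silica 2 both left out, the 8 members were still called, Isg20 and Rtp4 were called as well, and the call of Gbp4 was lost. In that fit 10 members were thus higher and 0 lower in Silica + ATL-III against Silica. Of all 15459 tested genes, 1768 were called higher there and 1746 lower. The part that neutrophil or monocyte transcripts have in these levels was not tested.

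The guanylate-binding proteins (GBPs) and the immunity-related GTPases attack vacuoles of intracellular pathogens and respond strongly to interferon gamma. Gbp4 was the only member called lower by edgeR with the filter and TMM factors. It was at 7.08, 6.17 and 7.75 FPKM in Control, 3.28, 6.22 and 4.63 in Silica, and 2.77, 1.27 and 2.83 in Silica + ATL-III. Every Silica + ATL-III library lay below every other, with a log2 fold change of -1.49 ± 0.27 against Control (SE, adjusted p = 0.00341, edgeR) and -1.01 ± 0.27 against Silica (adjusted p = 0.0221). The call against Silica was lost without Silica 2 or Silica 3 (adjusted p up to 0.0619). Exons of Gbp4 overlap those of Gbp8 and Gbp9 on the same strand, and 3.08% of its 75-base stretches also occur in other genes. Its counts may therefore be split with those genes.

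Gbp2, Gbp3, Gbp5 and Gbp7 were called in no comparison with all 9 libraries. Gbp3 was at 11.8, 10.00 and 13.8 FPKM in Control, 9.21, 12.2 and 9.62 in Silica, and 16.4, 5.62 and 7.53 in Silica + ATL-III. Without Silica + ATL-III 1 it was called lower than in Silica (-0.63 ± 0.18, adjusted p = 0.0426, edgeR) and than in Control (-0.71, adjusted p = 0.0296). Gbp2 was the most abundant member of this family (19.2 to 33.8 FPKM) and Gbp5 the least (1.21 to 2.28 FPKM). The immunity-related GTPases Irgm1 (6.85 to 11.6 FPKM), Igtp (10.0 to 20.8 FPKM) and Ifi47 (10.2 to 17.7 FPKM) were also not called. Iigp1, the fourth of them, was at 8.28, 8.57 and 9.90 FPKM in Control, 11.8, 11.2 and 10.2 in Silica, and 13.3, 4.39 and 6.92 in Silica + ATL-III. Its log2 fold change against Silica was -0.42 ± 0.29 (adjusted p = 0.331, edgeR) with all libraries and -0.95 ± 0.18 (adjusted p = 0.00767) without Silica + ATL-III 1.

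The second pattern rests on a single library. Silica + ATL-III 1 was at least 1.5-fold above both its group mates in 24 of 45 tested members (53.3%), while 3.60% of all tested genes were. The next library in this count was Silica 2, with 6 members (13.3%, against 5.44% of all genes), then Control 2 with 2 (4.44%, against 4.02%), and the other 6 libraries had 0. Silica + ATL-III 1 also held the highest level of all 9 libraries in 34 members, against 9.33% of all genes. The median log2 ratio of Silica + ATL-III 1 to the mean of its group mates was 0.72 over the members. Over all genes it was -0.00, a value that the scaling of FPKM to each library's total largely sets. Of the 11 neutrophil markers, 0 were 1.5-fold above both group mates there, a count near the 3.60% of all tested genes. Their sum was highest in Silica + ATL-III 3.

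**Figure D3:**
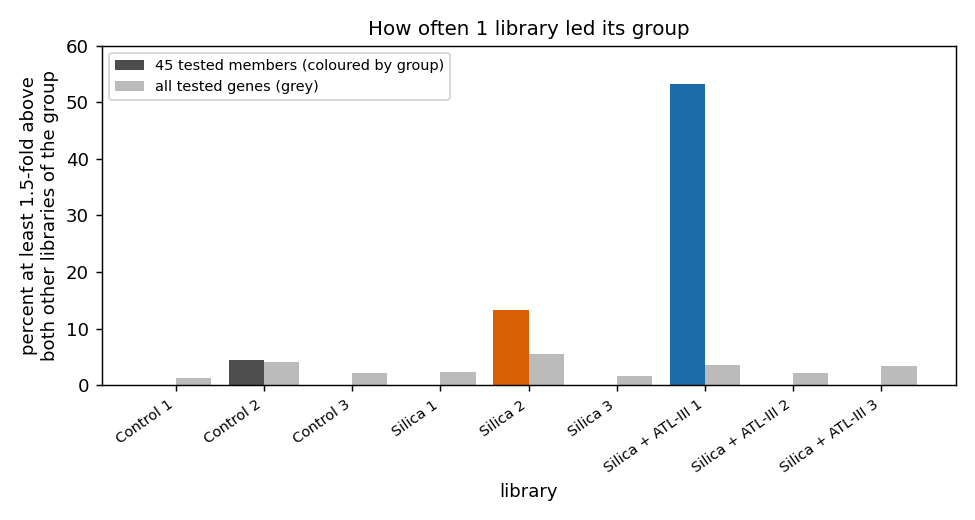
Percent of the 45 tested members (coloured bars) and of all 15459 tested genes (grey bars) whose FPKM in a library was at least 1.5-fold above both other libraries of the same group. The bar of Silica + ATL-III 1 reaches 53.3% of the members against 3.60% of all genes, and the next highest member bar is Silica 2 at 13.3%.

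The 24 members were all 4 IFIT genes, Isg15 and Usp18, Irf7, Dhx58 and Zbp1, Oas1a, Oasl2 and Eif2ak2, Mx1, Mx2 and Rsad2, Iigp1 and Igtp, Gbp2, Gbp3 and Gbp5, and Bst2, Ifi44, Rtp4 and Xaf1. Gbp2 was just inside the 1.5-fold limit at 1.53, and Stat2 was just outside it at 1.46. Among the 21 others were the 4 IFITM genes, Oas2, Oas3 and Trim30a, for which the ratio lay between 0.68 (Ifitm1) and 1.37 (Oas2). The rest were Irf1, Irf9, Stat2, Ddx58, Ifih1, Isg20, Cmpk2, Irgm1, Ifi47, Gbp4, Gbp7, Ifi27, Ifi35 and Parp14.

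Mx1 and Mx2 are genes of the dynamin-like GTPase family, and Mx1 had the steepest lead. Only their transcripts were measured, and whether these mice make working Mx proteins was not examined. It was at 1.03, 1.22 and 1.14 FPKM in Control, 1.62, 1.70 and 1.11 in Silica, and 5.69, 0.63 and 0.80 in Silica + ATL-III. Library 1 was 7.11 times the higher of its group mates, and those 2 libraries were the lowest of all 9. The log2 fold change against Silica was 0.70 ± 0.63 (SE, adjusted p = 0.461, edgeR) with all libraries and -1.02 ± 0.27 (adjusted p = 0.0265) without Silica + ATL-III 1. Mx2 had a like profile, at 0.78 to 1.43 FPKM in the Control and Silica libraries and at 4.04, 0.61 and 1.09 in Silica + ATL-III, and was called in neither fit.

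Ifi44, an interferon-induced gene much used in blood signatures of viral infection, came next, with Silica + ATL-III 1 at 6.50 times the higher of its mates. It was at 2.61, 2.26 and 2.15 FPKM in Control, 2.15, 2.97 and 2.49 in Silica, and 8.45, 0.96 and 1.30 in Silica + ATL-III. The 2 other Silica + ATL-III libraries lay below all Control and Silica libraries. Without library 1, Ifi44 was called lower than in Silica (-1.14 ± 0.19, adjusted p = 0.00396, edgeR) and than in Control (-0.91 ± 0.19, adjusted p = 0.0117), where all 9 libraries had given 0.52 ± 0.60 (adjusted p = 0.575) and 0.72 ± 0.60 (adjusted p = 0.46).

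The IFIT proteins bind viral RNA that lacks the host's cap marks. Ifit1 was at 17.95, 15.4 and 14.2 FPKM in Control, 19.8, 20.5 and 18.4 in Silica, and 57.0, 8.93 and 12.7 in Silica + ATL-III. Its Silica libraries all lay above its Control libraries, and Silica + ATL-III 2 and 3 lay below both groups. Against Silica the log2 fold change was 0.44 ± 0.50 (SE, adjusted p = 0.569, edgeR), and -0.83 ± 0.17 (adjusted p = 0.00877) without Silica + ATL-III 1. Ifit3, the most abundant of the family, was at 59.2, 45.3 and 46.6 FPKM in Control, 54.6, 59.7 and 56.1 in Silica, and 123, 30.5 and 51.9 in Silica + ATL-III. Ifit3b was at 8.96 to 12.6 FPKM in Control and Silica and at 20.1, 4.12 and 9.32 in Silica + ATL-III, and Ifit2 at 10.8 to 13.8 and at 15.0, 7.42 and 9.71. None of these 3 was called by edgeR with the filter, with or without Silica + ATL-III 1. Ifit3 and Ifit3b share long stretches (41.1% and 35.7% of their 75-base stretches), so their counts may be split between them.

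Isg15 encodes a ubiquitin-like protein that is attached to other proteins during the interferon response, and Usp18 the protease that removes it. Isg15 was at 12.2, 10.6 and 8.87 FPKM in Control, 21.7, 21.3 and 20.1 in Silica, and 58.3, 11.6 and 15.9 in Silica + ATL-III. The Silica libraries were tightly grouped above Control. Silica + ATL-III 2 lay within the Control range, Silica + ATL-III 3 between the Control and Silica libraries, and Silica + ATL-III 1 above all. Its call against Control (1.55 ± 0.47, adjusted p = 0.0441, edgeR) was lost when any 1 of the Control or Silica libraries or Silica + ATL-III 1 was left out (adjusted p up to 0.136), and without the last it was 0.52 (adjusted p = 0.121). Usp18 was at 6.66 to 9.15 FPKM in Control and Silica, with every Silica library above every Control library, and at 17.5, 6.79 and 7.33 in Silica + ATL-III, with no call.

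Rsad2 encodes viperin, an enzyme that makes a chain-terminating nucleotide against viral polymerases, and Cmpk2 is its genomic neighbour that supplies nucleotides. Rsad2 was at 2.21, 2.59 and 1.45 FPKM in Control, 3.55, 3.79 and 3.33 in Silica, and 6.98, 2.05 and 2.78 in Silica + ATL-III. Cmpk2 ran from 2.48 FPKM in Silica + ATL-III 2 to 5.52 in Silica + ATL-III 1. For both genes all Silica libraries were above all Control libraries, and neither was called by edgeR with the filter. Rsad2 was called higher in Silica than in Control by limma-voom with sample weights, and higher in Silica + ATL-III than in Control by DESeq2. Ifi27, which encodes a mitochondrial membrane protein, was among the most abundant members and varied little, at 93.9 to 105 FPKM in Control, 93.3 to 96.0 in Silica, and 88.3, 69.0 and 72.8 in Silica + ATL-III. All Silica + ATL-III libraries lay below all others, and its call against Silica came without library 1 (-0.39 ± 0.11, adjusted p = 0.0316, edgeR), against -0.28 ± 0.11 (adjusted p = 0.0831) with it. With all 9 libraries, Ifi27 was called lower than in Silica with upper-quartile factors, and lower than in Control with library totals and by limma on log2 FPKM values. Xaf1 was at 4.33 to 8.09 FPKM in Control and Silica and at 13.6, 4.90 and 4.95 in Silica + ATL-III. Ifi35 (25.6 to 36.4 FPKM) and Parp14 (5.99 to 10.7 FPKM) had no call.

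Leaving out Silica + ATL-III 1, which had been singled out by these members' own values, changed the balance of the members. Against Silica, 8 were then called higher, the same 8 as before, where 8.45% of all genes were, and 8 lower, where 6.79% were. Gbp4 was joined among the lower by Bst2, Gbp3, Ifi27, Ifi44, Ifit1, Iigp1 and Mx1. The median log2 fold change of the members turned from 0.31 to -0.21, and against Control from 0.42 to -0.022, with 10 higher (7.57% of all genes) and 3 lower (4.38%). Leaving out Silica + ATL-III 2 instead raised the count of higher members to 12, by Dhx58, Irf7, Rtp4 and Zbp1. Leaving out Silica + ATL-III 3 raised it to 10, by Irf7 and Irf9. Of all 15459 tested genes, 1099 and 1912 were called higher in these fits, against 1726 with all libraries. The labels give no batch or date, and why library 1 differs was not tested.

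**Figure D4:**
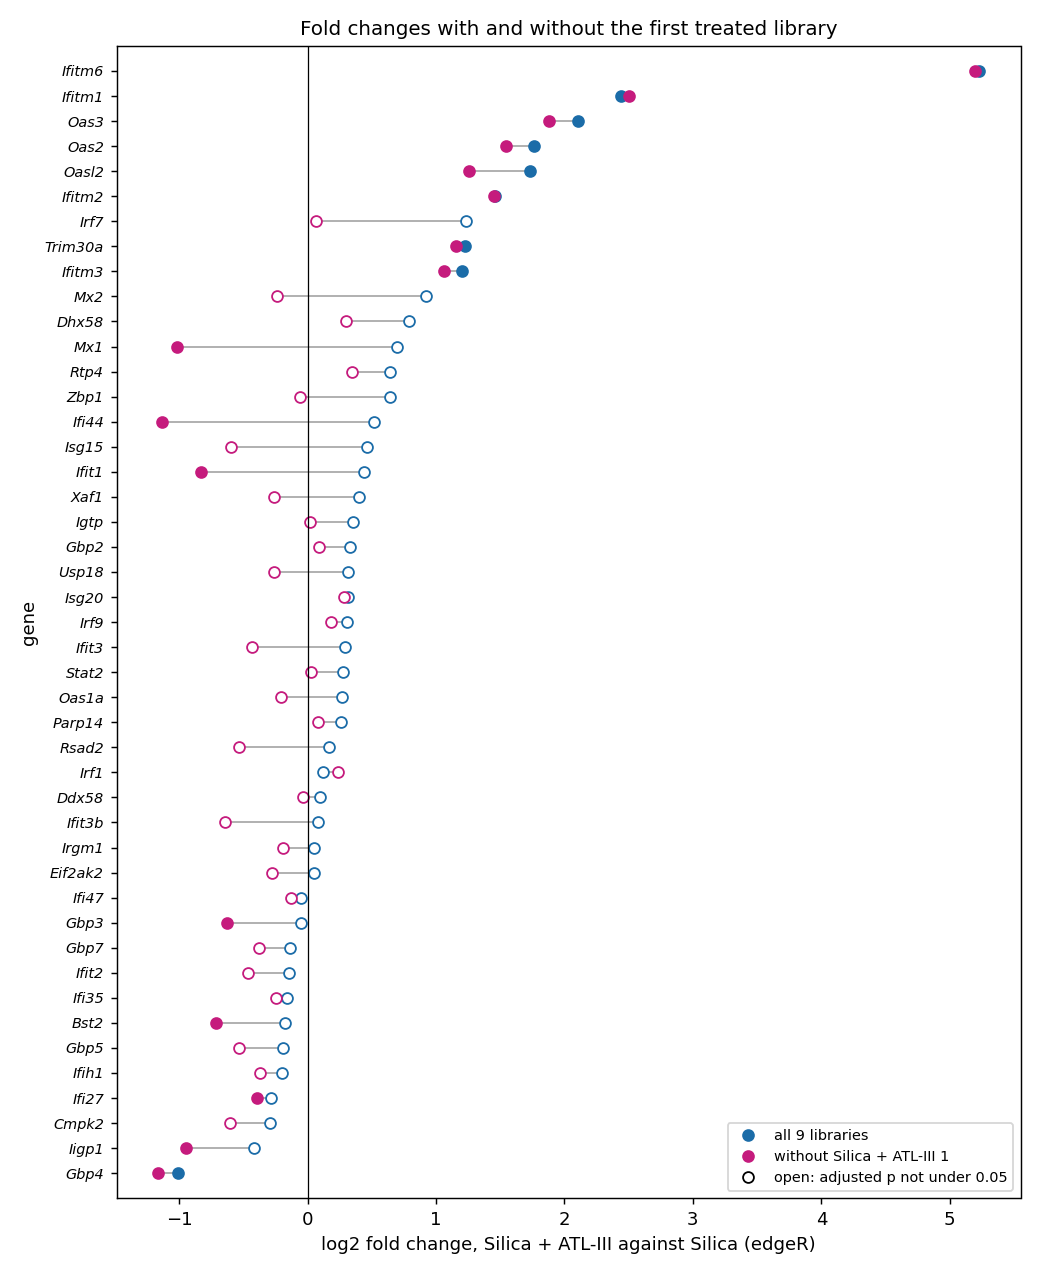
Log2 fold change of each of the 45 tested members in Silica + ATL-III against Silica (edgeR), with all 9 libraries (blue) and without Silica + ATL-III 1 (magenta), joined by a line; filled points had an adjusted p under 0.05. The IFITM genes, Oas2, Oas3, Oasl2 and Trim30a stay at the right in both fits, while Mx1, Ifi44 and Ifit1 cross from above 0 to below it.

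The transcription factors of the response, which carry the signal from the receptor or amplify it, were not called by edgeR with the filter. Irf7, which amplifies type I interferon production, was at 4.55, 5.07 and 3.64 FPKM in Control, 4.55, 6.80 and 4.79 in Silica, and 26.3, 4.71 and 6.30 in Silica + ATL-III. Outside library 1 it overlapped with Silica, and its log2 fold change against Silica was 1.23 ± 0.50 (SE, adjusted p = 0.0975, edgeR) with that library and 0.06 (adjusted p = 0.869) without it. Against Control it was 1.61 ± 0.50 (adjusted p = 0.0501, edgeR), which became a call with relative log expression factors, and 0.46 (adjusted p = 0.182) without library 1. Exons of Irf7 overlap those of Phrf1 on the other strand, and whether the counting used strand is not stated in the labels or files, so reads from both genes may be mixed. Irf9, the DNA-binding part of the ISRE-binding complex, was at 11.3, 11.7 and 10.7 FPKM in Control, 10.3, 10.8 and 10.5 in Silica, and 15.1, 12.4 and 11.1 in Silica + ATL-III. The last group did not overlap with Silica, although edgeR gave no call (0.31 ± 0.11, adjusted p = 0.0703), and limma-voom with sample weights called it higher against Silica and against Control. Its partner Stat2 (6.96 to 12.3 FPKM) was highest in Silica + ATL-III 1. The gamma-responsive Irf1 (13.6 to 18.8 FPKM) varied little and was lowest in that library.

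Among the nucleic acid sensors, Ddx58 and Ifih1 encode RIG-I and MDA5, which detect viral RNA, Dhx58 their regulator LGP2, and Zbp1 a sensor of left-handed nucleic acid that can start cell death. Zbp1 was at 2.33, 1.92 and 1.52 FPKM in Control, 4.18, 4.50 and 2.77 in Silica, and 10.4, 2.25 and 4.96 in Silica + ATL-III. Silica did not overlap with Control, and Silica + ATL-III 2 lay within Control. It was called higher in Silica + ATL-III than in Control (1.72 ± 0.43, adjusted p = 0.0184, edgeR), a call that was lost without Control 2, Control 3 or Silica + ATL-III 1 (adjusted p up to 0.0742). Dhx58 was at 1.67 to 2.58 FPKM in Control and Silica and at 5.33, 2.06 and 2.70 in Silica + ATL-III. Ddx58 (5.62 to 7.95 FPKM) and Ifih1 (4.66 to 7.53 FPKM) stayed within narrow ranges, and all Silica libraries of Ifih1 lay above all Control libraries.

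Ifit1, Isg15, Usp18, Ifih1, Zbp1, Oas1a, Rsad2, Cmpk2, Iigp1, Ifitm1 and Bst2 were higher in every Silica library than in every Control library in FPKM. These were 11 of 45 members where 14.4% of all genes were so placed. In the same measure, 9 members were higher and 2 lower without overlap in Silica + ATL-III against Silica (15.5% and 19.6% of all genes), and 10 and 2 against Control (12.0% and 30.6%). Gbp2 and Xaf1 were lower in every Silica library than in every Control library, where 28.9% of all genes were. Only Ifitm1 and Oas1a were called by edgeR with the filter when the spread was estimated from all 9 libraries. When the 6 Control and Silica libraries were fitted alone, 9 were called higher, where 10.1% of all genes were, and 0 lower, where 8.41% were. The 9 were those 2 and Bst2, Ifih1, Ifit1, Iigp1, Isg15, Rsad2 and Zbp1. In that fit Isg15 had a log2 fold change of 1.10 ± 0.16 (SE, adjusted p = 0.00276, edgeR), against 1.09 ± 0.47 (adjusted p = 0.125) with all libraries. The fold change of Isg15 was thus nearly the same in both fits, and its standard error was smaller without the Silica + ATL-III libraries. Leaving out Silica + ATL-III 1 alone gave 6 members called higher and 0 lower (9.07% and 6.73% of all genes): Bst2, Ifitm1, Isg15, Oas1a, Rsad2 and Zbp1. A fit that weights libraries by their quality (limma-voom with sample weights) called 4 higher (Bst2, Ifitm1, Oas1a and Rsad2) and 1 lower (Gbp4), where it called 18.1% of all genes higher and 18.8% lower. Of the heart muscle markers 5 of 7, and of the neutrophil markers 2 of 11, were called in this comparison, the first lower and the second higher in Silica. The part of either in the members' levels was not tested.

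The interferons themselves were hardly counted. Of 21 interferon genes in the table, 14 had no count in any library, which allows up to 3 counts for each, and none was tested. Ifng, the gene for interferon gamma, had 11, 17 and 8 counts summed over the Control, Silica and Silica + ATL-III libraries, and 0.00 to 0.41 FPKM. Ifnb1 had 1 count in all, in a Silica library. At this depth no difference in interferon transcripts between the groups was detectable.

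Upstream of the members, of 16 tested receptors, kinases and transcription factors, 5 were called higher and 1 lower in Silica against Control (9.11% and 7.81% of all genes), 6 and 1 in Silica + ATL-III against Silica (11.2% and 10.0%), and 6 and 0 in Silica + ATL-III against Control (9.14% and 6.71%). Ifngr1, the ligand-binding chain of the interferon gamma receptor, was at 41.9 to 47.6 FPKM in Silica and 75.5 to 91.2 in Silica + ATL-III (log2 fold change 0.91 ± 0.10, adjusted p = 0.000247, edgeR). Its partner Ifngr2 rose with silica instead by the same edgeR fit (0.63 ± 0.12, adjusted p = 0.00848), as did Il10rb, a chain of the interferon lambda receptor (0.66 ± 0.13, adjusted p = 0.00725). Ifnar2, a chain of the type I receptor, was also called by edgeR in Silica against Control (0.43 ± 0.09, adjusted p = 0.0117), but not without Control 3 (adjusted p up to 0.0528). The call of Ifnar1, the other chain, in Silica + ATL-III against Silica (0.37 ± 0.12, adjusted p = 0.0434, edgeR) was lost without any 1 of 8 libraries (adjusted p up to 0.13, all but Silica 2). Stat3 (0.71 ± 0.13, adjusted p = 0.00359, edgeR) and Socs3 (1.40 ± 0.19, adjusted p = 0.000634), a feedback inhibitor of cytokine receptors, were higher in Silica + ATL-III than in Silica. Irf8, which macrophages and dendritic cells need, was lower in Silica + ATL-III than in Silica (-0.51 ± 0.15, adjusted p = 0.033, edgeR), a call lost without Silica 1, Silica 3, Silica + ATL-III 1 or Silica + ATL-III 2 (adjusted p up to 0.101).

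Further lists were sensing genes and other interferon-induced genes, to be read against the same shares of all genes. Of 13 tested sensing genes, 2 were called higher in Silica against Control, 4 in Silica + ATL-III against Silica and 5 in Silica + ATL-III against Control, with 0 lower in each. The endosomal RNA receptor Tlr7 rose with silica (log2 fold change 1.53 ± 0.11, adjusted p = 4.16e-05, edgeR), and Myd88, the adaptor of Toll-like receptors, rose in Silica + ATL-III against Silica (0.69 ± 0.13, adjusted p = 0.0032). Among 45 tested other interferon-induced genes, 5 were called higher and 1 lower in Silica against Control, 7 and 2 in Silica + ATL-III against Silica, and 12 and 4 in Silica + ATL-III against Control. The 5 and the 7 lie near the 9.11% and 11.2% of all genes called higher in those comparisons. Slfn1 (3.17 ± 0.48, adjusted p = 0.00108, edgeR), Slfn4 (3.22 ± 0.67, adjusted p = 0.00623) and Slfn2 (1.10 ± 0.17, adjusted p = 0.00119), of the Schlafen family, led in Silica + ATL-III against Silica. Slfn1 and Slfn4, like most of the risen members, were highest of their groups in Control 2 and Silica 2, at 19.2 and 13.4 FPKM for Slfn1. Silica + ATL-III 1 was at least 1.5-fold above both group mates in 16 of these 45 genes, among them Herc6, Ddx60 and Parp12, in 0 of the 13 sensing genes and in 3 of 17 interferon-gamma-induced genes (Tgtp1, Tgtp2 and Gbp6). Of all tested genes 3.60% were so placed, and the 0 of 13 lies near that share.

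Of 17 tested interferon-gamma-induced genes, 4 were called higher and 0 lower in Silica against Control, 1 higher and 5 lower in Silica + ATL-III against Silica, and 1 higher and 3 lower in Silica + ATL-III against Control. Among all genes, 9.11% were called higher and 7.81% lower in the first of these comparisons, 11.2% and 10.0% in the second, and 9.14% and 6.71% in the last. The median log2 fold change of the 17 was 0.24, -0.17 and 0.13. Ciita, the master regulator of MHC class II genes, was at 1.31 to 1.69 FPKM in Silica and 0.48 to 0.66 in Silica + ATL-III (log2 fold change -1.35 ± 0.18, adjusted p = 0.000575, edgeR). The immunoproteasome gene Psmb8 was higher in Silica than in Control (0.87 ± 0.16, adjusted p = 0.00646, edgeR), and Psme2, for a subunit of the proteasome activator, was lower in Silica + ATL-III than in Silica (-0.62 ± 0.13, adjusted p = 0.00771). Nos2, the inducible nitric oxide synthase, was the gene called higher (3.69 ± 0.38, adjusted p = 0.000144, edgeR), from 0.19 to 0.36 FPKM in Silica to 2.31 to 4.79 in Silica + ATL-III. No Silica library of Nos2 reached the filter's limit of 1 FPKM, and the Silica + ATL-III libraries, in which it was high, were enough to pass it. The chemokine genes Cxcl9 and Cxcl10 were too low to be tested, at 0.23 to 2.74 and 0.43 to 2.59 FPKM over all libraries, and Cxcl10 was highest in Silica + ATL-III 1. B cells, whose markers were lower in Silica + ATL-III (7.33 to 19.9 FPKM summed over 6 markers, against 37.7 to 65.2 in Silica), also express Ciita, and the part of cell numbers in its level was not tested.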

How the data were processed

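RNA-seq libraries from 9 lung samples, 3 each of Control, Silica and Silica + ATL-III, were analysed. The authors deposited a table with whole-number read counts per gene, not normalized, for each library. Beside them they deposited FPKM values, which equalled the counts divided by the listed gene length and the library total, within 0.006 in 100% of values. The build mm10 and the tools HTSeq 0.6.1, HISAT2 2.0.1 and cutadapt 1.9.1 are listed, with no roles, in the submitters' processing notes. The strand setting and annotation release of the counting are not given in the sources used here.

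All 9 libraries entered 1 fit of 3 group means (edgeR 4.0.16 in R 4.3.3, TMM factors, quasi-likelihood F test, 6 residual degrees of freedom), with p-values adjusted over all 15459 tested genes by the Benjamini-Hochberg method and a threshold of 0.05. The standard error of a log2 fold change is its size over the square root of F. The test was also run on simulated counts with known changes, made from the means and dispersions of these libraries. Its recovery there is not reported here. Depth of 16047175 to 17792481 counts limits genes under about 1 FPKM. FPKM values are not TMM-scaled. DESeq2 1.42.0, limma 3.58.1, other normalizations and filters, single libraries left out and the 6 libraries compared alone were alternatives. The alternative without Control 2 and Silica 2 was chosen after seeing the data. No library was a copy of another (chi-square per degree of freedom at least 6.44 between libraries of a group).

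Control and Silica libraries with the same number deviated weakly together from their group means (correlations over genes of 0.101, 0.132 and 0.116), while Silica and Silica + ATL-III (-0.061, -0.035 and -0.193) and Control and Silica + ATL-III (-0.034, -0.1 and -0.143) did not. Control and Silica libraries with different numbers gave -0.17 to 0.075. Values as high also arose between libraries with different numbers, 0.168 for Control 2 with Silica + ATL-III 3 and 0.135 for Silica 3 with Silica + ATL-III 2. The labels do not say what a number shares.

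The members and lists were chosen with earlier results of these data known. Every member called in a comparison is described with its libraries, and the others by range. Of each pathway list, up to 3 called genes with the smallest p per comparison were eligible to be named, besides Ifng, Ifnb1, Ifnar1, Ifnar2, Ifngr1, Ifngr2, Irf8, Cxcl9 and Cxcl10. A further gene of that rule is not reported here. Herc6, Ddx60, Parp12, Tgtp1, Tgtp2 and Gbp6 were named after their values were seen. Promoter sequences and their coordinates are from RefSeq (GRCm38.p6), and transcripts for the search of shared 75-base stretches from GENCODE M21.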

Additional observations from a re-analysis of the deposited data

How the results depend on the processing

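Members called in Silica against Control numbered 2 with all libraries, 11 without the filter on low values, 9 with only the 6 libraries compared, 5 by limma-voom with sample weights, and 2 to 6 with single libraries left out (6 without Silica + ATL-III 1). In Silica + ATL-III against Silica they numbered 9, 20 without the filter, and 7 to 16 with single libraries left out (7 without Silica 3, 16 without Silica + ATL-III 1). In Silica + ATL-III against Control they numbered 13, 26 without the filter, and 11 to 17 with single libraries left out. The median of the members in Silica against Control was 0.15, and 0.0266, 0.02665 and 0.02653 by limma on log2(FPKM + 0.5), log2(FPKM + 0.1) and log2(FPKM + 1). The same limma fits gave 0.092, 0.091 and 0.13 in Silica + ATL-III against Silica (0.31 by edgeR) and 0.175, 0.181 and 0.169 against Control (0.42). With library totals the median in Silica against Control was 0.059, and with the stricter filter it was 0.093 there and 0.28 in Silica + ATL-III against Control. With single libraries left out, the median ranged from -0.21 to 0.48 in Silica + ATL-III against Silica and from -0.022 to 0.68 against Control, negative only without Silica + ATL-III 1.

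Without Silica + ATL-III 1, fold changes against Silica reversed for Ifit1 (-0.83, range over left-out libraries up to 0.85), Mx1 (-1.02, up to 1.15) and Ifi44 (-1.14, up to 0.97), and for Ifi44 against Control (-0.91, up to 1.18). Genes called over the whole table ranged, with single libraries left out, from 862 (without Control 3) to 3944 (without Silica 2) in Silica against Control (2615 with all, 5704 by limma-voom with sample weights), from 1925 to 3877 in Silica + ATL-III against Silica (3279), and from 1474 to 2864 in Silica + ATL-III against Control (2451). The cause of these changes was not tested. Every alternative kept 2 of 2, 7 of 9 and 11 of 13 member calls in these comparisons, where the gene was tested.

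With library totals in place of TMM factors the median of all genes went from -0.01 to -0.11 in Silica against Control, and the share of higher among called genes went from 53.8% to 32.7%. In Silica + ATL-III against Control the median went from -0.01 to -0.13 and the share went from 57.6% to 34.3%, with 47.4% by upper-quartile factors. In Silica + ATL-III against Silica it went from 52.6% to 42.5% by upper-quartile factors.

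With the replicate block, the members called stayed 2, 9 and 13, the same genes, the medians were 0.13, 0.21 and 0.32, and the table's calls were 2120, 2822 and 2109. Depth left Oasl1, the interferon genes, Cxcl9 and Cxcl10 without a test.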
